A study of Rattus norvegicus with 18 samples.

Results

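The genes described here are 8 genes of myelin and of the cells that make it, namely Mbp, Pmp2, Pmp22, Prx, Mag, Cnp, Mog and Sox10. They were taken as a list of symbols, by a rule that uses no measured value, although earlier results of these data were known when the list was made, and all 8 were found among the 32285 genes of the retina table and the 32552 genes of the RPE/choroid table. Bulk RNA-seq was performed on neural retina and on RPE/choroid, the retinal pigment epithelium with the vascular layer behind it, from wild-type Fischer344 rats, an inbred albino strain used to study aging. The study used female rats only. Each tissue had 3 libraries from untreated young rats of 4 months, 3 from untreated aged rats of 24 months, and 3 from aged rats of 24 months that had drunk 8-aminoguanine (8-AG), a purine, for 8 weeks at a daily dose of 5 mg/kg. The ages are those of the sample labels, and the published description of the study gives a slightly lower age for its young rats. All aged rats, treated or not, were compared with the same young libraries, so the comparisons with a common group share those libraries.

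Myelin is a stack of glial membrane wrapped around an axon. Schwann cells make it in peripheral nerves and oligodendrocytes make it in the central nervous system. The retina of the rat holds unmyelinated axons that gain their myelin behind the eye, whereas the choroid is crossed by ciliary nerves that contain Schwann cells. Mbp encodes myelin basic protein, which binds the cytoplasmic faces of compact myelin together in both kinds of glia. Pmp2 and Pmp22 encode proteins of peripheral myelin, the first a fatty acid-binding protein and the second a membrane protein. Prx encodes periaxin, a scaffold protein of myelinating Schwann cells that is also made by lens fiber cells. Mag encodes an adhesion protein at the inner face of myelin toward the axon, and Cnp encodes an enzyme of the non-compact myelin channels. Mog encodes a protein of the outer surface of oligodendrocyte myelin, and Sox10 encodes a transcription factor of Schwann cells, oligodendrocytes and melanocytes.

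Levels are given in CPM, read counts scaled to the library total with TMM factors over the 9 libraries of a tissue, and fold changes are log2 values from edgeR's quasi-likelihood test on the 6 libraries of a comparison, with their standard error (SE). A gene was called a differentially expressed gene (DEG) by the study's rule, which asks for an unadjusted P under 0.05 together with a change of over 1.5-fold, and the adjusted p (Benjamini-Hochberg over all genes tested) is given beside it. The words rose and fell are kept for an adjusted p under 0.05. Nothing in the labels says whether the 3 libraries of a group came from separate animals, so p-values measure the spread between these libraries. In RPE/choroid, libraries 1 and 2 of the young group carry the same number in their labels and differ in the letter L or R, as do libraries 1 and 2 of the aged group, so a pair may share an animal and p-values may be too small. In bulk tissue, fewer cells of a type and less RNA per cell cannot be told apart.

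Total counts ran from 12283458 to 15644346 in the retina libraries and from 28573828 to 48203050 in the RPE/choroid libraries. In retina, the summed level of 14 rod photoreceptor genes was 58261 to 63427 CPM in young, 36846 to 41723 CPM in aged and 37424 to 49452 CPM in 8-AG-treated libraries. RPE/choroid libraries carried RPE genes at summed levels of 1661 to 6104 CPM, but their rod genes ranged from 628 to 55908 CPM. Library 1 of the 8-AG-treated RPE/choroid stood apart. It held the highest rod sum, a skeletal muscle sum of 68646 CPM against 35.7 to 6412 CPM in the other 8 libraries, a melanocyte sum of 1984 CPM against 13951 to 35718 CPM, a fibroblast sum of 1291 CPM against 4819 to 11987 CPM, and a surface epithelium sum of 2133 CPM against 20.5 to 199.9 CPM. The fitted fold changes of the members in the 8-AG comparisons of RPE/choroid are therefore given with and without it. In retina, the summed level of 12 lens genes was 2844 CPM in young library 1, 6254 CPM in young library 2 and 1773 CPM in 8-AG library 1, against 17.1 to 154 CPM in the other 6, and 2 of the 12 had no count in any aged retina library. The part of these cell types in the results was not tested beyond the values given beside them.

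**Figure D1:**
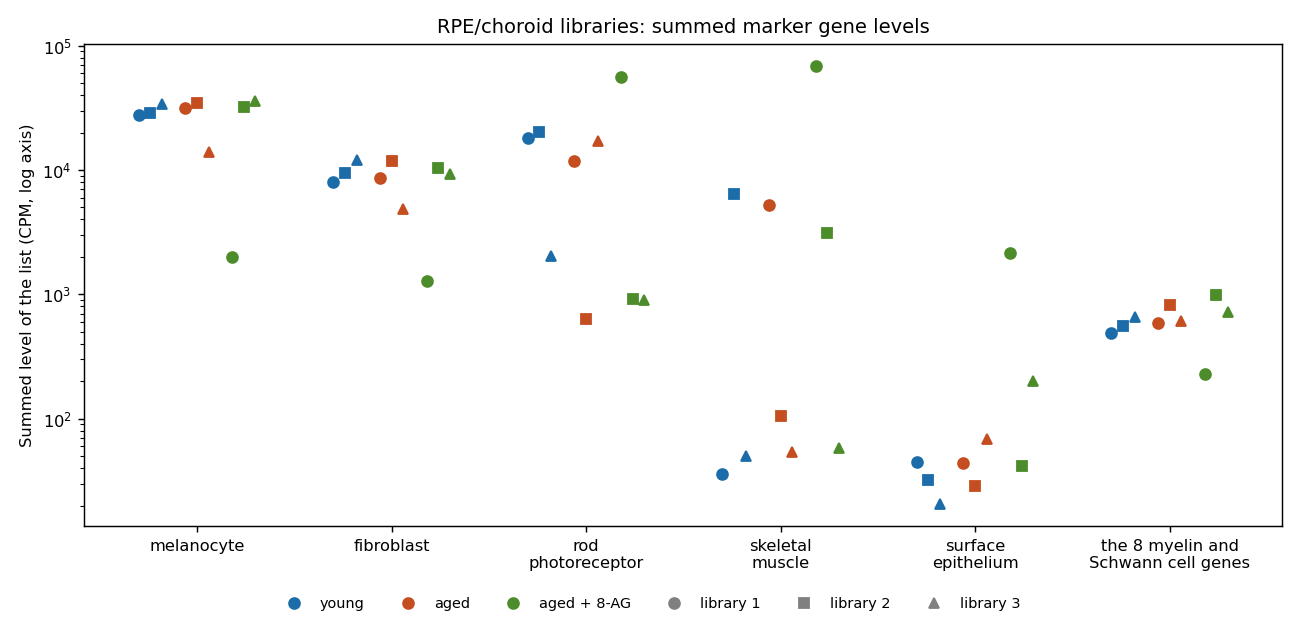
Summed levels of marker gene lists in each RPE/choroid library (vertical log axis, CPM; colours mark the group, shapes the library number). Library 1 of the 8-AG-treated group lies lowest for melanocyte genes (1984 CPM), fibroblast genes (1291 CPM) and the 8 myelin and Schwann cell genes (230.2 CPM), and highest for skeletal muscle genes (68646 CPM).

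To show a regulatory sequence beside the values, the promoters of the 8 genes were read from RefSeq (build GRCr8), which held a window from 250 bases before to 50 bases after the start for 5 of them, Mbp, Pmp22, Prx, Mag and Cnp. Both strands were searched for ACAAAG and ACAAT, 2 short words that SOX family factors such as Sox10 are known to bind. Both begin with ACAA, and neither word holds the other. ACAAAG was present once in the Cnp window, once in the Mag window and once in 1 of the 2 Mbp windows, and was not found in the Prx or Pmp22 window. ACAAT was found in that same Mbp window, at 2 places, and in none of the other member windows. Of all 33469 rat promoter windows, 18.8% held ACAAAG and 33.7% held ACAAT, so a match is a description of these letters and not a site. The windows of Cnp and Mag are printed because Cnp is the member that rose in retina and Mag a member that was called in RPE/choroid on few reads. Capitals mark ACAAAG, or CTTTGT where the word lies on the other strand. The Cnp window lies at chr10:86011254-86011553 on the plus strand and its word begins 203 bases before the start. The Mag window lies at chr1:95290995-95291294 on the minus strand and its word, on the other strand, begins 152 bases before the start.
Cnp: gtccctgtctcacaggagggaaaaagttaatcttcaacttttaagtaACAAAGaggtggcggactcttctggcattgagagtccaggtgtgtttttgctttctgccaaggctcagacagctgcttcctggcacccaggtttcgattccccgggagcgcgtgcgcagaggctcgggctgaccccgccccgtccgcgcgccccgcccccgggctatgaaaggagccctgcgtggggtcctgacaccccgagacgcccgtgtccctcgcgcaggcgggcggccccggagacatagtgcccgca
Mag: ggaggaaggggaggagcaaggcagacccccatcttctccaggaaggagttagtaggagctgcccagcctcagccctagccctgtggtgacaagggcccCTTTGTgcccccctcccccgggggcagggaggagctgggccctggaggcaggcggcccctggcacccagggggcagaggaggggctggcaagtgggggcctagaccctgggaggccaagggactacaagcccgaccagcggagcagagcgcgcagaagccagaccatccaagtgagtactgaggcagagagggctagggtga

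In aged against young RPE/choroid, the comparison that asks what aging does to this tissue, 2 of the 7 tested members were called DEGs, both higher in aged rats, whereas 1.35% of the 16047 genes tested were called and 0.717% were called higher. The 2 were Mbp and Pmp2. Pmp2 had no count in any young library and passed the filter through the aged libraries alone, so the count of 2 is a description and is not read against those shares. Neither passed an adjusted p of 0.05 with edgeR, as no gene did in this comparison, where 341 genes had an unadjusted P under 0.05. The median log2 fold change of the 7 tested members was 0.14, against 0.02 over all genes tested. In the same comparison 9 of 9 endothelial genes tested had a value below 0, at a median of -0.52 with 2 called, and 4 of 8 lens genes were called lower, and the part of these cell types in the members' values was not tested.

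Mbp was measured at 23.8, 28.7 and 13.5 CPM in young RPE/choroid and at 40.3, 67.3 and 113.8 CPM in aged RPE/choroid. The 3 aged libraries were all above the 3 young libraries, and 2.89% of all genes tested were separated in that direction. The log2 fold change was 1.74 (SE 0.45, adjusted p = 1.0, edgeR), 3.34-fold, and the DESeq2 adjusted p was 0.116. It was called without each library in turn, at 1.30 to 2.03. With the libraries that share a label number summed to 1 sample, it was 2.06 and still called. The aged library with the highest Mbp, library 3, also held the highest Gfap of the tissue, at 332 CPM against 56.7 and 58.4 CPM in the other aged libraries, and had the lowest melanocyte and fibroblast sums of the aged group. Gfap marks astrocytes and reactive Müller glia. The summed level of 10 oligodendrocyte genes was 138 CPM in that library, against 36.7 to 76.1 CPM in the other aged and the young libraries. Its nodal axon sum was 619 CPM against 76.3 to 507 CPM, and its retinal ganglion cell sum 801 CPM against 189 to 635 CPM. In 8-AG library 1 the oligodendrocyte, nodal and ganglion cell sums were 115, 1003 and 1181 CPM, with Mbp at 26.3 CPM. Mog, 1 of the oligodendrocyte genes, was at 0.671 CPM in aged library 3, its lowest level in any RPE/choroid library. The part of these cell types in the Mbp value was not tested. Without aged library 3 the Mbp value was 1.30.

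Pmp2 had 0 counts in each of the 3 young RPE/choroid libraries and 19, 31 and 50 counts in the aged libraries, or 0.613, 0.916 and 1.68 CPM. With the young group held at a floor of 3 counts over its libraries, the level was at least 40.3-fold higher in aged RPE/choroid, a log2 value of at least 5.33 (edgeR adjusted p = 1.0). The transcript was scarce, so these counts carry the whole difference, and the members' median above takes its fitted value as it stands. With Pmp2 at its bound the median is unchanged, since it is the highest of the 7 values in both cases.

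The other members differed less than their libraries did. Pmp22 was measured at 211 to 311 CPM in young and 231 to 385 CPM in aged RPE/choroid, with a log2 fold change of 0.14 (SE 0.26). Prx ran from 11.8 to 16.6 CPM in young and from 12.8 to 16.6 CPM in aged libraries, with a log2 fold change of 0.14 (SE 0.20). These genes overlapped between the groups. Cnp lay at 123, 147 and 180 CPM in young and 154, 189 and 174 CPM in aged libraries, a log2 fold change of 0.20 with a 95% interval from -0.23 to 0.62.

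Mag, at 0, 4 and 0 counts in young and 0, 12 and 29 counts in aged RPE/choroid, was too low for edgeR's filter and was not tested. Mog was at 1.11 to 2.71 CPM in young and 0.671 to 1.48 CPM in aged libraries, and its log2 fold change of -0.82 (SE 0.50) had a 95% interval that spanned 0. Sox10 was measured at 113, 99.6 and 134 CPM in young and 133, 158 and 68.0 CPM in aged RPE/choroid, with a log2 fold change of 0.05 (SE 0.33). Its lowest aged value was again library 3, the library in which Mbp was highest.

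**Figure D2:**
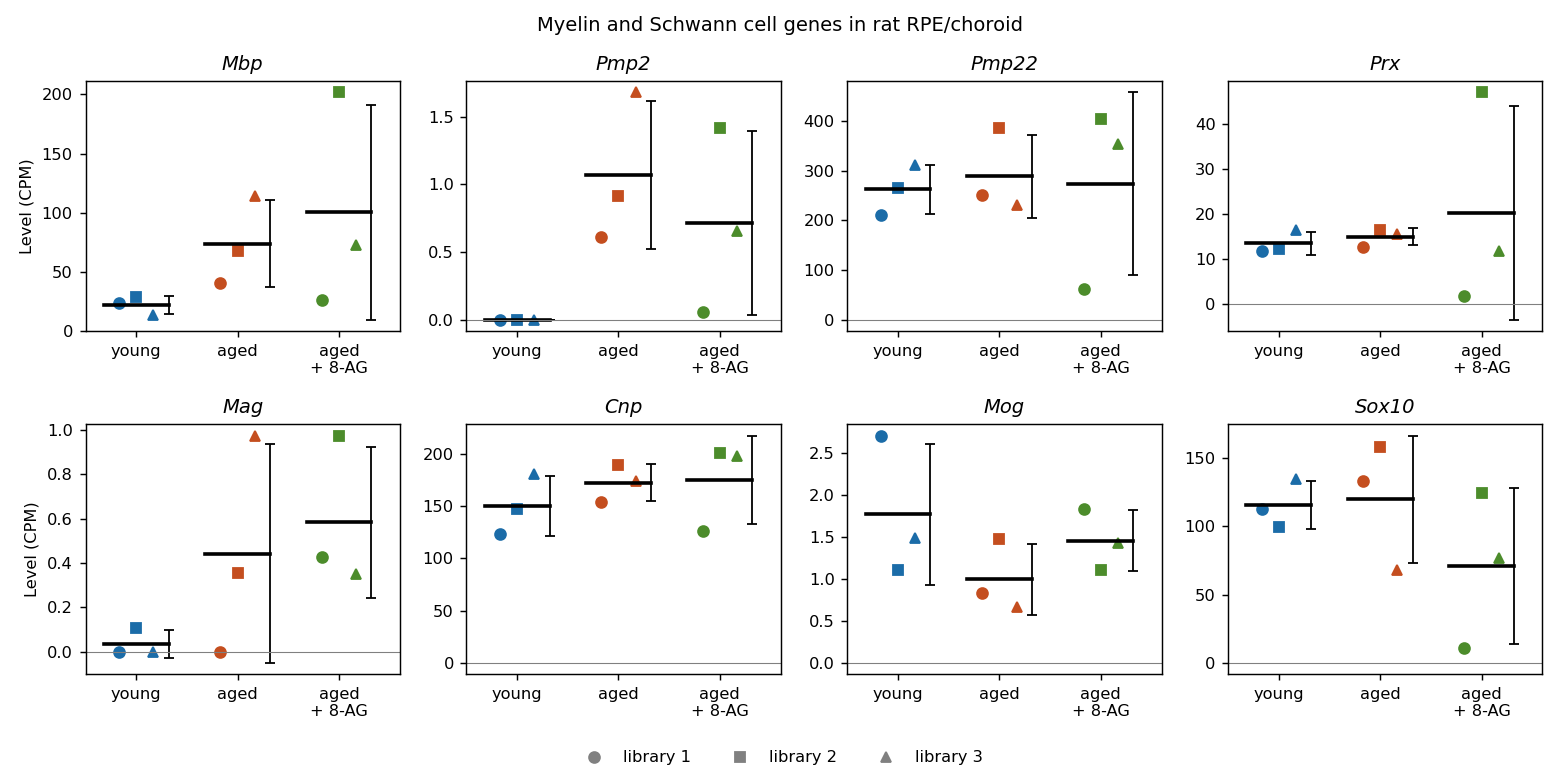
Level of each member in the 9 RPE/choroid libraries (vertical axis CPM, linear; the scale differs between panels; shapes mark the library number, bars the group mean and whiskers the SD, n = 3). Mbp lies at 13.5 to 28.7 CPM in the young libraries and at 40.3 to 113.8 CPM in the aged libraries, and Pmp2 is at 0 in all 3 young libraries.

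In 8-AG-treated against untreated aged RPE/choroid, the comparison that asks what the compound does in aged tissue, none of the 8 tested members was called a DEG, while 1.65% of 16257 genes were. No gene had an adjusted p under 0.05 with edgeR, and 274 had an unadjusted P under 0.05. With DESeq2, 81 genes did, none of them a member. The treated libraries were spread widely, and library 2 was the highest and library 1 the lowest of the group for Mbp, Pmp2, Pmp22, Prx, Cnp and Sox10.

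Mbp was at 26.3, 201.7 and 72.4 CPM in the 8-AG-treated libraries, on both sides of the aged range of 40.3 to 113.8 CPM. The log2 fold change was 0.44 with a 95% interval from -1.47 to 2.36, and 0.89 (SE 0.60) without library 1. Without library 2 it was -0.57. Prx was at 1.90, 47.1 and 11.9 CPM, against 12.8 to 16.6 CPM in untreated aged rats. Its log2 fold change was 0.44 (SE 1.01), with 0.97 (SE 0.57) without library 1 and -1.12 without library 2. The direction of both genes thus rested on 1 library.

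Pmp2 was at 2, 51 and 30 counts in the treated libraries, or 0.061, 1.42 and 0.658 CPM, against 0.613 to 1.68 CPM in untreated aged rats. The log2 fold change was -0.58 (SE 1.01) with all libraries, -0.05 (SE 0.65) without library 1 and -1.54 without library 2. Pmp22 was at 62.7, 404 and 354 CPM, with a log2 fold change of -0.08 (SE 0.67) that turned to 0.38 (SE 0.27) without library 1. Sox10 was at 10.9, 124 and 76.4 CPM, and its log2 fold change was -0.76 (SE 0.83), or -0.26 (SE 0.42) without library 1. Without library 2 the Sox10 value was -1.45. The Sox10 level of library 1 was the lowest of the 9 RPE/choroid libraries, where the melanocyte sum was lowest as well.

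The remaining members were Cnp, Mag and Mog. Cnp had a log2 fold change of 0.04 with an interval from -0.56 to 0.63, and 0.20 (SE 0.16) without library 1. Mag was at 14, 35 and 16 counts in the treated libraries against 0, 12 and 29 in the untreated aged libraries, with a log2 fold change of 0.41 (SE 1.29), or 0.57 (SE 1.45) without library 1. Mog had a log2 fold change of 0.58 (SE 0.48), or 0.34 (SE 0.52) without library 1, and the intervals of all 3 genes spanned 0.

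In 8-AG-treated aged against young RPE/choroid, 2 of the 7 tested members were called, Mbp and Mag, both higher, whereas 1.99% of 16215 genes were called and 1.71% were called higher. Mag was near 0 in young rats and too low to be tested in aged against young rats, so it passed the filter here through the treated libraries and the count is a description. With library 1 left out, 3 of the 8 then tested were called, Mbp, Mag and Pmp2, while 4.15% of all genes were, and since Pmp2 too entered through the treated libraries this count is likewise not read against that share. No gene reached an adjusted p of 0.05 with edgeR, and 341 had an unadjusted P under 0.05. Mbp had a log2 fold change of 2.19 (SE 0.78, adjusted p = 1.0) and of 2.64 (SE 0.53) without library 1. Library 1, at 26.3 CPM, lay within the young range of 13.5 to 28.7 CPM. Leaving out 8-AG library 2 brought the Mbp value to 1.19 and ended the call, and leaving out any 1 young library also ended it, at 1.95 to 2.44. With the young libraries that share a label number summed to 1 sample it was 2.33 and not called.

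Mag rested on few reads, 14, 35 and 16 counts against 0, 4 and 0 in young rats. The log2 fold change was 3.92 (SE 1.28, adjusted p = 1.0), and 4.10 (SE 1.34) without library 1. Without 8-AG library 2, young library 1 or young library 3 the call was lost, at 3.38, 3.44 and 3.32. Without young library 2, the only young library with a Mag count, the fitted value was 7.50. No young read was then left, so that value is not read as a size. Pmp2 did not pass the filter in this comparison. Its 83 counts over the 3 treated libraries against 0 in the young libraries put it at least 27.7-fold higher, a log2 value of at least 4.79, and all 3 treated libraries were above all 3 young ones. Mag was separated in the same way, as were 2.7% of all genes tested. Pmp2 was not tested here and Mag passed the filter through the treated libraries, so neither separation is read against that share.

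The other members overlapped between the groups. Pmp22 had a log2 fold change of 0.06 (SE 0.67), and of 0.53 (SE 0.20) without library 1. Prx had 0.58 (SE 1.03), and 1.12 (SE 0.57) without library 1. Cnp had 0.23 (SE 0.26), and 0.41 (SE 0.19) without library 1. Mog was at -0.26 (SE 0.47) and Sox10 at -0.71 (SE 0.79), or -0.47 and -0.20 without library 1.

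Other genes of the pathway were read from lists made for their known roles. Among the compact myelin proteins and their partners, 0 of 16 tested were called in aged against young RPE/choroid, beside 1.35% of all genes. Their median log2 fold change was 0.62 against 0.02 over all genes. The summed level of the 17 genes found overlapped, at 608 to 657 CPM in young and 646, 867 and 510 CPM in aged libraries.

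Of the myelin lipid enzymes, 1 of 8 tested was called in aged against young RPE/choroid, beside 1.35% of all genes, namely Fa2h, which hydroxylates the fatty acids of myelin lipids, with a log2 fold change of 1.01 (SE 0.40). Of the glial transcription factors 1 of 7 was called, Sox2, a factor of immature glia, at 1.13 (SE 0.42). Of 10 astrocyte and Müller glia genes, 1 was called, higher, and 8 had a value above 0, and their part in the Sox2 value was not tested. None of the 17 Schwann cell surface and signalling genes was called. None of the 12 genes of nodes and paranodes, the gaps in the myelin sheath, and none of the 10 oligodendrocyte genes was called. Neither Fa2h nor Sox2 reached an adjusted p of 0.05.

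With 8-AG the same lists gave few calls. In treated against untreated aged RPE/choroid 1 of 17 compact myelin genes was called, beside 1.65% of all genes, namely Mal, a lipid raft protein of myelin, at 1.55 (SE 0.56). In the same comparison 8 of 9 tested surface epithelium genes were called higher, and their part in the Mal value was not tested. Without library 1 Mal was 0.92 (SE 0.40), no longer called, and Cldn19 was called instead at 4.06 (SE 1.14), beside 3.35% of all genes. Cldn19 encodes a claudin of Schwann cell junctions that the retinal pigment epithelium also makes. It was at 0.825, 2.36 and 38.4 CPM in the treated libraries and at 0.775, 1.36 and 1.51 CPM in the untreated aged libraries, so the high level was that of 8-AG library 3. The lipid enzyme, surface, nodal, oligodendrocyte and transcription factor lists had 0 calls with all libraries. Without library 1 the nodal list had 2 lower and the transcription factor list 1 lower. The nodal list then had a median log2 value of -1.23, the rod genes -3.38 and the retinal ganglion cell genes -1.72, and the part of the retinal genes was not tested. In treated aged against young RPE/choroid, 4 of 16 compact myelin genes were called, 3 higher and 1 lower, beside 1.99% of all genes. Without library 1 there were 2 higher and 1 lower, beside 4.15% of all genes, and the surface and signalling list then had 1 higher and the nodal list 1 lower. In that fit 14 of 14 rod genes were called lower, and the ganglion cell genes had a median log2 value of -1.76. With all libraries, 7 of 9 surface epithelium genes were called higher, and 11 of 11 skeletal muscle genes had a value above 0, at a median of 3.45. The part of these cell types was not tested. Cldn19 was at 4.87 (SE 1.79), or 5.45 (SE 1.45) without library 1, and Mal at 1.12 (SE 0.43), or 0.52 (SE 0.13) and not called without library 1. Of the 8 lipid enzymes Fa2h was called at 2.24 (SE 0.56), and at 2.01 (SE 0.58) without library 1. Cldn11, the claudin of oligodendrocyte myelin, was called lower at -1.58 (SE 0.35), and at -1.51 (SE 0.42) without library 1.

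In aged against young retina, 1 of the 6 tested members was called, Cnp, whereas 8.84% of 14588 genes tested were called and 6.45% were called higher. Cnp was at 25.04, 23.3 and 24.2 CPM in young retina and at 34.9, 45.0 and 38.9 CPM in aged retina. The 3 aged libraries were all above the 3 young libraries, as were 17.5% of all genes tested. The log2 fold change was 0.71 (SE 0.10, adjusted p = 0.00143, edgeR), 1.64-fold, so Cnp rose, where 14.5% of all genes tested had an adjusted p under 0.05. It was called without each library in turn, at 0.61 to 0.79. Without the 2 young libraries rich in lens genes, which leaves 1 young library, the value was 0.72. The rod sums of the aged libraries all lay below those of the young libraries, with 9 of 14 rod genes called lower, and their part in the Cnp value was not tested.

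Mbp was not called in aged retina. It was at 13.3, 13.1 and 11.6 CPM in young and at 11.4, 10.7 and 11.5 CPM in aged retina, with every aged library below every young one, as were 17.5% of all genes tested. The log2 fold change was -0.17 (SE 0.11), with a 95% interval from -0.42 to 0.08. Mog, at 2.47 to 3.67 CPM in young and 2.70 to 4.66 CPM in aged retina, had a log2 fold change of 0.34 (SE 0.26). It was 0.13 without aged library 2 and 0.54 without young library 3, and was not called. Sox10 was at 0.539, 0.901 and 0.408 CPM in young and at 1.55, 0.383 and 1.94 CPM in aged retina, with 6 to 28 counts per library. Its log2 fold change of 1.05 (SE 0.58) was not called with all libraries. It was 1.505 and called without aged library 2, and 0.62 and not called without aged library 3.

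Prx and Pmp22 were read beside the lens genes. Prx was at 4.78, 9.76 and 0.476 CPM in young retina and at 1.47, 1.79 and 1.52 CPM in aged retina. Pmp22 was at 40.0, 42.3 and 20.1 CPM in young and at 24.8, 27.7 and 23.3 CPM in aged retina. The high young values of both genes were those of libraries 1 and 2, whose lens sums were 2844 and 6254 CPM. With all libraries the log2 fold changes were -1.63 (SE 1.004) for Prx and -0.43 (SE 0.31) for Pmp22. Without those 2 young libraries they were 1.74 and 0.34, so both directions reversed, but the young group was then 1 library, with 7 Prx counts, and no call is read from it. Without young library 3, the young library with the low lens sum, they were -2.18 and -0.71 and both were called.

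**Figure D3:**
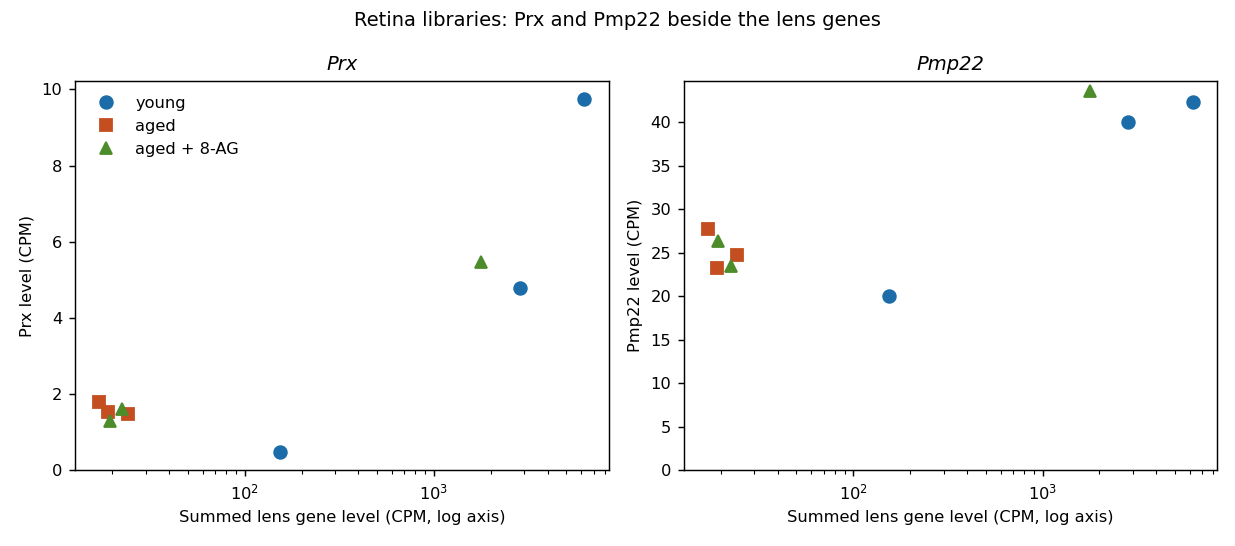
Prx (left) and Pmp22 (right) level in CPM in each retina library against the summed level of the lens genes of that library (horizontal log axis, CPM; 3 libraries per group). The 3 libraries with a lens sum of 1773 CPM or more had Prx at 4.78 to 9.76 CPM and Pmp22 at 40.0 to 43.6 CPM, and the other 6 had Prx at 0.476 to 1.79 CPM and Pmp22 at 20.1 to 27.7 CPM.

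Pmp2 and Mag were near the limit of detection in retina and did not pass the filter of the main test. Pmp2 had at most 2 counts in any of the 9 libraries, and Mag had 3 to 9 counts. Ncmap, a protein of the Schwann cell myelin sheath, had 0 counts in all 9 retina libraries. DESeq2, edgeR without the filter and limma on the deposited TMM values called neither gene in any retina comparison. For Mag in aged against young retina their adjusted p was 0.603 to 0.823, with a log2 fold change of 0.60 by DESeq2.

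In 8-AG-treated against untreated aged retina, none of the 6 tested members was called, while 0.957% of 14631 genes were. With edgeR 3 genes had an adjusted p under 0.05, none a member, and 537 had an unadjusted P under 0.05. Cnp was at 39.3, 40.8 and 33.2 CPM in treated retina, within or just below the untreated aged range of 34.9 to 45.0 CPM, a log2 fold change of -0.07 with a 95% interval from -0.33 to 0.19. Mbp was at 14.3, 12.5 and 11.0 CPM, a log2 fold change of 0.17 with an interval from -0.13 to 0.47. Prx was at 5.46, 1.30 and 1.60 CPM and Pmp22 at 43.6, 26.3 and 23.5 CPM, and both were high only in library 1 of the treated group, the library with the lens sum of 1773 CPM. Their log2 fold changes were 0.79 (SE 0.53) and 0.30 (SE 0.23), and -0.13 and -0.02 without that library. Mog (0.14, SE 0.24) and Sox10 (0.38, SE 0.58) overlapped between the groups. The 8-AG-treated retina libraries are labelled as total RNA and the other retina libraries as polyA RNA, although the protocol text describes poly-A capture for all, so that label and the treatment cannot be told apart in either 8-AG comparison of retina.

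In 8-AG-treated aged against young retina, 2 of the 6 tested members were called, Cnp and Sox10, both higher, whereas 8.58% of 14542 genes were called and 6.5% were called higher. Cnp rose, with a log2 fold change of 0.65 (SE 0.10, adjusted p = 0.00289), where 14.9% of all genes tested had an adjusted p under 0.05. Every treated library was above every young library for Cnp and for Sox10, as were 17.2% of all genes tested. Sox10 had 7, 12 and 6 counts in young and 35, 12 and 20 in treated retina, so it passed the filter through the treated libraries. Its call and its separation are a description and are not read against those shares. Cnp was called without each library in turn, at 0.59 to 0.74. In the same comparison 14 of 14 rod genes had a value below 0, with 3 called lower, and their part in the Cnp value was not tested. Sox10 was at 2.69, 0.976 and 1.34 CPM, each above the young range of 0.408 to 0.901 CPM. Its log2 fold change was 1.44 (SE 0.47, adjusted p = 0.0706), and without 8-AG library 1 it was 0.92 and not called. Without all 3 lens-rich libraries, which leaves 2 treated libraries and 1 young library, it was 1.5.

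The other members of that comparison did not differ beyond their spread. Mbp had a log2 fold change of 0.00 with a 95% interval from -0.30 to 0.30. Mog had 0.48 (SE 0.23), and without young library 3 or 8-AG library 3 it was 0.69 and 0.59 and was called. Prx had -0.84 (SE 1.16) and Pmp22 -0.13 (SE 0.41), which turned to 1.60 and 0.32 without the lens-rich libraries.

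**Figure D4:**
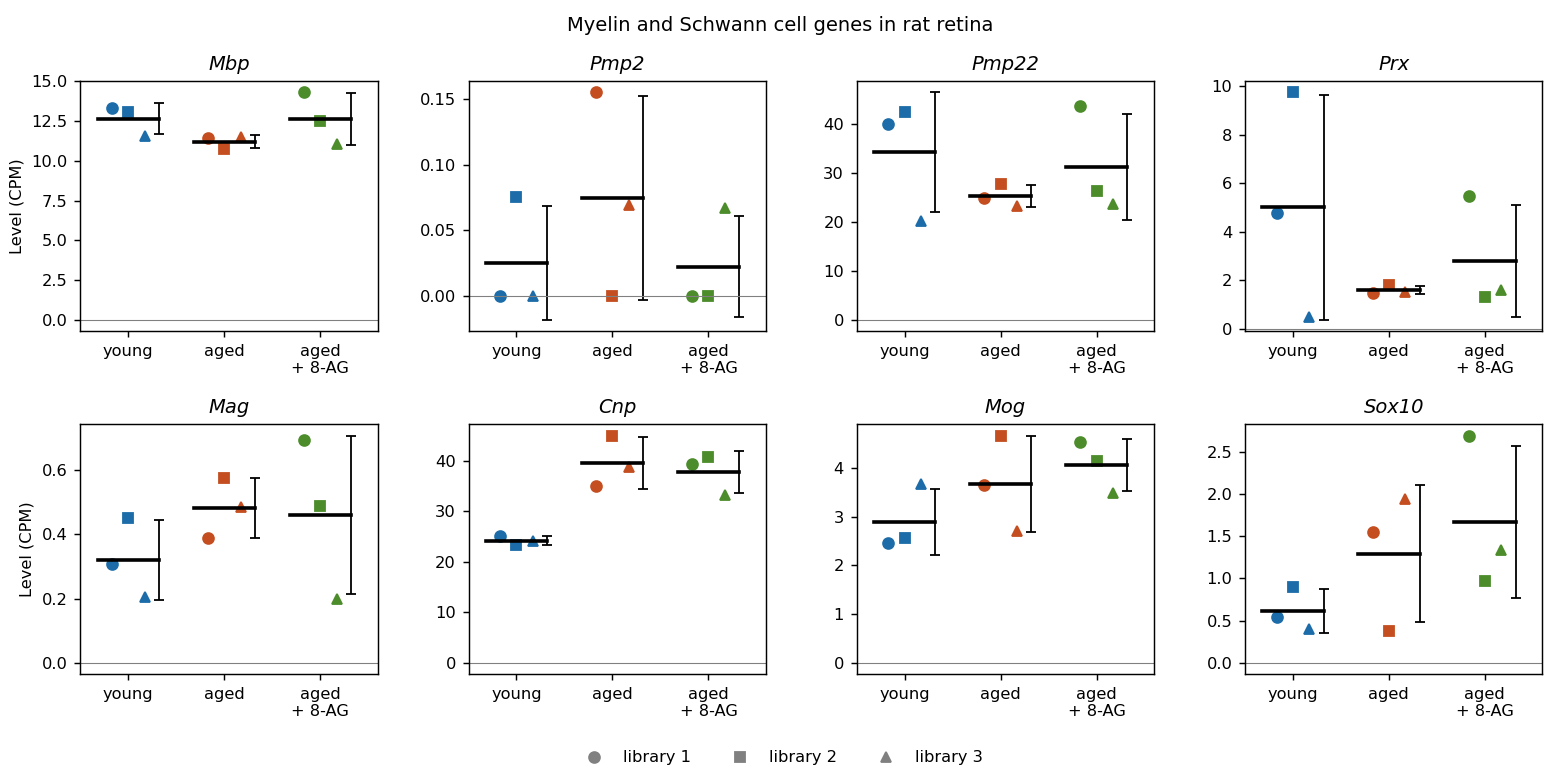
Level of each member in the 9 retina libraries (vertical axis CPM, linear; the scale differs between panels; shapes mark the library number, bars the group mean and whiskers the SD, n = 3). Cnp lies at 23.3 to 25.04 CPM in the young libraries and at 33.2 to 45.0 CPM in the other 6, and Prx and Pmp22 are highest in young libraries 1 and 2 and in 8-AG library 1.

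The Schwann cell surface and signalling genes gave the most calls of the pathway lists in retina. In aged against young retina 6 of 15 tested were called, all higher, beside 8.84% of all genes tested, and 7 of 15 had an adjusted p under 0.05, beside 14.5%. Cdh19, a cadherin of Schwann cell precursors, rose from 11.3, 13.5 and 12.8 CPM to 32.2, 37.4 and 28.3 CPM, a log2 fold change of 1.38 (SE 0.12, adjusted p = 0.000145). Scn7a, a sodium channel of glia, rose by 1.40 (SE 0.22), and Plekha4, a phosphoinositide-binding protein, rose by 1.19 (SE 0.16). Several of these genes are also expressed by retinal glia, and Gfap rose in the same comparison, from 21.1 to 33.3 CPM in young to 219 to 445 CPM in aged retina. Of the microglia and macrophage genes, 9 of 10 tested were called higher, with a summed level of 42.9 to 45.3 CPM in young and 131 to 224 CPM in aged retina, and 9 of 14 rod genes were called lower. Of the endothelial genes, 9 of 10 had a value above 0 and 4 were called higher, at a median log2 value of 0.64, while their summed level was 635 to 707 CPM in young and 600.2 to 707 CPM in aged retina. Of the lens genes, 7 of 9 tested were called lower, with summed levels of 2844, 6254 and 154 CPM in young and 17.1 to 24.2 CPM in aged retina. Without the lens-rich libraries, which leaves 1 young library, 2 of 16 tested surface and signalling genes had an adjusted p under 0.05. The part of these cell types in the list was not tested.

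Among the compact myelin genes 3 of 12 tested were called in aged against young retina, beside 8.84% of all genes. Mal rose, with a log2 fold change of 0.94 (SE 0.23, adjusted p = 0.0213), Mpzl2, an adhesion protein, was at 1.24 (SE 0.49), and Cldn11 was lower at -0.85 (SE 0.30). Of the lipid enzymes 1 of 6 was called, Aspa, which releases acetate for lipid synthesis, at 0.84 (SE 0.24, adjusted p = 0.0445). Of 6 oligodendrocyte genes tested, Enpp6, a phosphodiesterase of newly formed oligodendrocytes, was called higher at 1.26 (SE 0.39) and Cldn11 lower. In the same comparison 7 of 9 tested lens genes were called lower, and their part in the Cldn11 value was not tested. None of the 7 transcription factors and none of the 12 nodal genes was called.

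In 8-AG-treated against untreated aged retina 1 gene of these 6 lists was called, beside 0.957% of all genes. It was 1 of 7 transcription factors tested, Pou3f2, a POU factor of developing Schwann cells and neurons, at -1.50 (SE 0.38, adjusted p = 0.996). Pou3f2 was at 0.538, 0.651 and 0.334 CPM in the treated and at 1.71, 1.08 and 1.52 CPM in the untreated aged libraries. Its log2 fold change was -1.55 without 8-AG library 1. These levels are low and the gene passed the filter through the untreated aged libraries. The call is therefore a description and is not read against the share of all genes. In 8-AG-treated aged against young retina, 6 of 15 surface and signalling genes were called, all higher, beside 8.58% of all genes, with Cdh19 at 1.42 (SE 0.13) and Scn7a at 1.47 (SE 0.15). Of the compact myelin genes, 3 of 12 were called, all higher, with Mal at 1.29 (SE 0.20, adjusted p = 0.00290). In the same comparison 12 of 12 microglia and macrophage genes and 4 of 5 tested surface epithelium genes were called higher, and 3 of 10 tested melanocyte genes, at a median of 0.91 on the log2 scale. The part of these cell types was not tested.

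**Figure D5:**
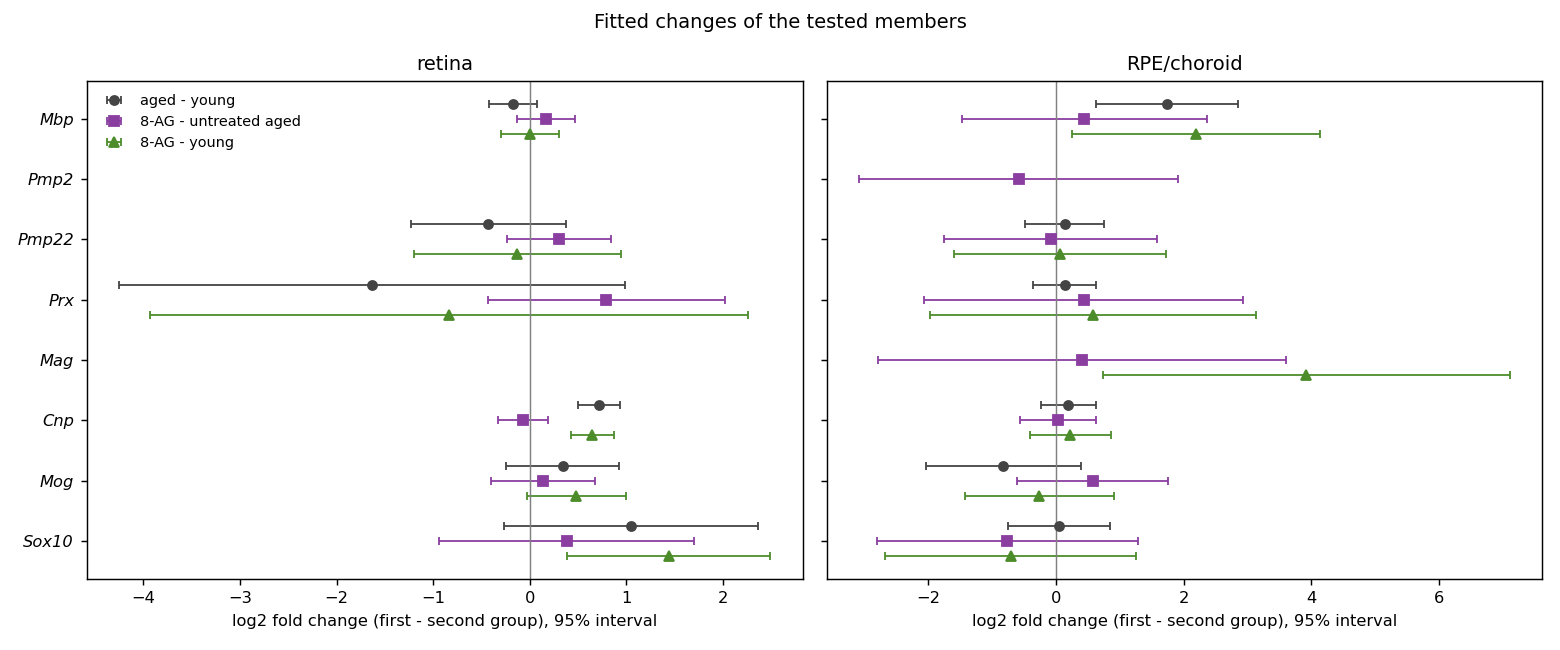
Fitted log2 fold changes of the tested members (horizontal axis; whiskers are 95% intervals from edgeR's quasi-likelihood test) in retina (left) and RPE/choroid (right), for aged minus young, 8-AG-treated minus untreated aged, and 8-AG-treated minus young. Pmp2 in aged against young RPE/choroid is left out because its young libraries were all at 0. The aged minus young interval of Cnp lies above 0 in retina (0.50 to 0.93) and that of Mbp above 0 in RPE/choroid (0.63 to 2.85).

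The genes whose pattern was most like that of the members were found by Pearson's r with the mean standardized log2 CPM of the 6 members with a mean of at least 1 CPM, over the 9 libraries of a tissue. In RPE/choroid these included Kcnk13, Cd69, Rgs14 and Plod2, with r from 0.96 to 0.98 among 12913 genes and Spearman's rho from 0.83 to 0.97. In retina they were Acaa2, Emp2, Klhl21, Itpr3 and Chrdl1, all with r of 0.96 among 12638 genes, but with Spearman's rho from 0.57 for Chrdl1 to 0.88 for Klhl21. In retina the mean standardized level of the members was highest in 8-AG library 1, at 1.25, and lowest in young library 3, at -0.92, against -0.26 to 0.17 in the other 7 libraries. In RPE/choroid it was lowest in 8-AG library 1, at -1.41, against -0.21 to 0.89 in the other libraries of the tissue. The libraries share their groups and their admixtures, and these values are a description of 9 libraries. In RPE/choroid the summed level of the 8 members was 486 to 657 CPM in young, 593 to 819 CPM in aged, and 230.2, 981 and 715 CPM in 8-AG-treated libraries.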

How the data were processed

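Bulk RNA-seq of 18 libraries was analysed, 3 for each of 6 groups. For retina the authors deposited RSEM expected counts per gene, not normalized, which were rounded; 11.5% were not whole. For RPE/choroid they deposited raw counts per gene. The authors also deposited TMM-normalized retina signal, used with limma as an alternative, and tables of their own fold changes and p-values, which were not used. The submitters' processing notes name Bowtie2 2.1.0, RSEM 1.2.15, edgeR and build Rnor_6.0. RPE/choroid libraries were enriched for full-length transcripts because of low yield.

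Symbols came from the names the authors pair with identifiers; 205 of 221 list symbols had an identifier. The members and all lists were chosen with earlier results of these data known. In R 4.3.3, the 6 libraries of each comparison were filtered (filterByExpr), scaled (TMM) and fitted with the robust quasi-likelihood F-test of edgeR 4.0.16. Scripts were tested on simulated data. Named beyond the 8 members were at most 3 called genes per list and comparison, with the smallest P, and the 5 genes most like the members per tissue; some genes under these rules are not reported here. The alternatives were DESeq2 1.42.0, limma 3.58.1 with a pseudocount of 1, RLE size factors, unrounded counts, a fit without the robust option, 1 fit over the 3 groups of a tissue, a replicate block, summing RPE/choroid libraries with the same label number, a minimum of 10 counts in each library, no minimum, and dropping each library in turn. Leaving out lens-rich retina libraries was chosen after seeing the data, as was refitting the lists without 8-AG RPE/choroid library 1. Depth limits scarce genes such as Pmp2 and Mag. Figures were drawn with matplotlib.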

Additional observations from a re-analysis of the deposited data

Results flagged for a closer look

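Mbp levels separated by age in opposite directions in the tissues. Every aged retina library was below every young one, as were 17.5% of all genes tested, with a log2 fold change of -0.17. The highest aged and the lowest young retina library were at 11.50 and 11.57 CPM. Every aged RPE/choroid library was above every young one, as were 2.89% of all genes tested, with a log2 fold change of 1.74. The difference between the tissues was not tested, the retina value did not pass the DEG rule, with a 95% interval from -0.42 to 0.08, and the RPE/choroid value had an adjusted p of 1.0 with edgeR. Groups of 3 libraries were not tested for outlying samples.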

How the results depend on the processing

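The rise of Cnp in both retina comparisons with young rats, and the higher Mbp called in aged against young RPE/choroid, kept their direction and call without each library in turn. Pmp2 had no count in any young RPE/choroid library, so nothing is read from its calls there with libraries left out. Pmp2 and Mag rested on few reads, below the minimum of 10 counts in some libraries, so depth limits both. The cause of the changes below was not tested, except where the setting itself removed genes or libraries.

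In RPE/choroid DESeq2 gave 1 member with an adjusted p under 0.05 for aged against young rats and 1 for treated aged against young rats, where edgeR gave 0. In both it was Pmp2, which had no count in young RPE/choroid and entered the test through the other group alone. Over all genes it gave 29, 81 and 98 with an adjusted p under 0.05 in the RPE/choroid comparisons of aged with young, treated with untreated and treated with young, where edgeR gave 0 in each. The genes called by the DEG rule in those comparisons were 217, 269 and 322 as reported, 384, 755 and 855 with DESeq2, 364, 503 and 597 with no filter, and 131, 465 and 512 with 1 fit over the 3 groups. In 8-AG-treated against untreated aged retina, 140 were called as reported, 318 with no filter, 92 with the minimum of 10 counts and 63 with limma on the authors' values, and the 3 genes with an adjusted p under 0.05 became 18 with DESeq2, 10 with no filter, and 0 with the minimum, the replicate block or no robust option. With no filter, 2 members had an adjusted p under 0.05 in 8-AG-treated aged against young retina. With a minimum of 10 counts, under which fewer genes were tested, 1 member was called in that comparison, and in RPE/choroid 1 was called for aged against young rats and 1 for treated aged against young rats. The Mbp value near 0 in 8-AG-treated aged against young retina turned to -0.0013 with DESeq2, -0.016 with no filter and -0.0086 with limma on the authors' values.

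Without the lens-rich libraries, which leaves 1 young library that is assumed to vary like the other group, 2 members were called in aged against young retina beside 10.4% of all genes, and 669 genes had an adjusted p under 0.05, against 2122 as reported, with Pmp22 at 0.34 and Prx at 1.74, and in treated aged against young retina Pmp22 was at 0.32 and Prx at 1.60. These counts rest on that assumption and are not read as calls.

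With summed RPE/choroid libraries, 85 genes were called in treated against untreated aged rats and 112 in treated aged against young rats, and Pmp22 was at -0.016 and Sox10 at -0.18 in aged against young rats, Pmp22 at 0.0025 in treated against untreated aged rats, and Pmp22 at -0.011 in treated aged against young rats, where Mbp, at 2.33, was no longer called.

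The replicate numbers did not pair the samples, since correlations of same-numbered libraries ran from -0.62 to 0.66 and no comparison had all 3 above 0.1. With a replicate block, Mbp was at -0.0036 in treated aged against young retina, Sox10 at -0.019 in aged against young RPE/choroid, and Prx at -0.49 in treated against untreated aged RPE/choroid. In treated aged against young RPE/choroid the block left 1 member called, with Pmp22 at -0.28 and Prx at -0.38, and 137 genes called in all, and it left 138 in aged against young RPE/choroid.

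Leaving out 1 library at a time moved the genes called over all, with 213 to 414 against 217 in aged against young RPE/choroid (328 without aged library 1, 414 without aged library 2), and 142 to 255 against 140 in 8-AG-treated against untreated aged retina (over 1.5 times without aged library 2, 8-AG library 2 or 8-AG library 3). Genes with an adjusted p under 0.05 were 1245 to 2312 against 2122 in aged against young retina, and 1026 to 2451 against 2163 in treated aged against young retina. In treated against untreated aged RPE/choroid the 269 became 97 and 86 without aged library 1 or 2, and 554 and 733 without 8-AG library 1 or 2. In treated aged against young RPE/choroid the 322 became 115, 126 and 154 without young library 1, 2 or 3, and 684 and 1202 without 8-AG library 1 or 2. Some member values kept their sign but moved. In aged against young RPE/choroid Mog was at -1.22 to -0.39, Prx at 0.047 to 0.29 and Cnp at 0.066 to 0.33. In 8-AG-treated against untreated aged retina Mbp was at 0.068 to 0.27. In treated aged against young RPE/choroid Sox10 was at -1.39 to -0.20. For the members, the counts and the ranges that crossed 0 were as follows. In aged against young retina, 1 to 3 members were called and 1 to 3 had an adjusted p under 0.05. In 8-AG-treated against untreated aged retina, 0 to 1 were called, with Cnp at -0.15 to 0.035, Mog at -0.046 to 0.35, Pmp22 at -0.021 to 0.48, Prx at -0.13 to 1.13 and Sox10 at -0.13 to 0.81. In treated aged against young retina, 1 to 3 were called, with Mbp at -0.099 to 0.095, Pmp22 at -0.45 to 0.064 and Prx at -1.76 to 0.11. In aged against young RPE/choroid, 2 to 3 were called, with Pmp22 at -0.12 to 0.28 and Sox10 at -0.20 to 0.34. In treated against untreated aged RPE/choroid, Cnp was at -0.070 to 0.20, Mag at -0.17 to 1.70, Mbp at -0.57 to 0.90, Pmp22 at -0.47 to 0.38 and Prx at -1.12 to 0.97. In treated aged against young RPE/choroid, 0 to 3 were called, 0 without 8-AG library 2, with Mog at -0.49 to 0.18, Pmp22 at -0.32 to 0.53 and Prx at -0.96 to 1.12.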
